A study of Mus musculus with 2 samples.

Results

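The genes described here are the 4 subunits of the type I and type II interferon receptors and 32 genes that interferon is known to induce or that carry its signal. They were chosen by name, and each gene was read from its brightest probe set, the one with the highest mean log2 signal over both arrays. A gene was measured when that probe set was above the median signal of both arrays together, 106.4, in at least 1 array. All 36 genes had a probe set among the 18193 genes of the array, and 35 of them were measured, of 12473 measured genes in all. Of the 35 genes, 33 were above this floor in both arrays and 2, Mx1 and Mx2, in the CD47 KO array alone.

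RNA came from the optic nerve and optic tract, which are white matter, of male CD47 KO mice of 12 to 15 weeks (labelled CD47 null) and male wild-type (WT) mice of 13 to 15 weeks. CD47 KO mice carry a constitutive null allele of Cd47, whose product is a cell surface ligand of SIRPα and restrains phagocytosis by microglia, and the comparison asks how its absence alters gene expression in white matter. RNA of several animals was pooled for each genotype and each pool went onto 1 Affymetrix mouse genome array. The pools held 4 CD47 KO and 5 WT mice by the study's methods and the description of the series, and 5 CD47 KO and 4 WT mice by the labelling protocol. With 1 array per genotype no test was possible, so that every ratio below lacks a replicate check and no p-value or SD between animals is given. In pooled tissue RNA, more cells of a type and more RNA per cell cannot be told apart.

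The interferons signal through paired receptor chains. Type I interferons (IFN-α and IFN-β) bind IFNAR1 with IFNAR2, and type II interferon (IFN-γ) binds IFNGR1 with IFNGR2. Janus kinases bound to these chains then activate STAT proteins. Under type I interferon a complex that holds STAT2 and IRF9 binds a DNA element called the ISRE and turns on genes that sense viral RNA, block viral entry or budding and stop translation, whereas IFN-γ acts mainly through an element called GAS. In the brain microglia, astrocytes, neurons and endothelial cells can all respond, and microglia with high levels of interferon-induced genes are known from aged and injured tissue.

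Cd47 itself was lower in the CD47 KO pool. Its brightest probe set had a signal of 1346 in CD47 KO and 3928 in WT (log2 ratio of CD47 KO over WT -1.54), and where this probe set lies relative to the deletion is not known here. The arrays had been scaled to the same trimmed mean of 500.003, with 22360 probe sets above the floor in CD47 KO and 22628 in WT. Genes of oligodendrocytes were bright in both pools, with Mbp (myelin basic protein) at 55270 in CD47 KO and 51510 in WT. Genes of neurons were above the floor as well, with Gad1 at 1346 in CD47 KO and 2918 in WT. The share of grey matter in each pool was not tested. A gene was measured more than once only where it had several probe sets. Over 11653 pairs of such probe sets in 4740 genes, each past the floor in each pool, the 2 log2 ratios of a pair differed with an SD of 0.36, and 95% of pairs differed by less than 0.74. Since both pools and both arrays are the same in every pair, this spread gives no measure of the spread between animals or between hybridisations. Whether the probe sets of a gene read the same transcripts was not tested.

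By their brightest probe sets, 0 of the 33 genes above the floor in both pools differed by over 2-fold, the threshold that the study used. For Mx1 and Mx2 the ratio is a lower bound under 2-fold, and without the floor both were over 2-fold higher in CD47 KO, at 124.7 in CD47 KO and 60.7 in WT for Mx1 and 156.6 in CD47 KO and 29.64 in WT for Mx2. A dimmer probe set of Ifngr2 was also over 2-fold higher. Among all measured genes, 1.21% were over 2-fold higher and 0.818% over 2-fold lower in CD47 KO. At 1.5-fold, with the bounds taken as they stand, 2 of the 35 genes were higher in CD47 KO (Ifi30 and Bst2) and 0 were lower, beside 4.02% and 4.68% of all measured genes. The log2 ratio was above 0 for 19 of the 35 genes, beside 46.8% of all measured genes. The median of the 35 genes was 0.06, and that of all measured genes -0.02. Mx1 and Mx2, with WT set to the floor, could only fall above 0. Of the 33 genes above the floor in both pools, 17 were above 0, with a median of 0.00. Of all 11592 genes above the floor in both pools, 5493 were above 0, with a median of -0.01. The spread of the 35 ratios (interquartile range -0.11 to 0.29) was shifted somewhat upward from that of all measured genes (-0.19 to 0.15), and 74.3% of the 35 genes and 74.2% of all measured genes differed by less than 1.25-fold. With 35 genes a share of a few percent corresponds to 1 or 2 genes, so the counts past a fold do not set these genes apart.

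**Figure D1:**
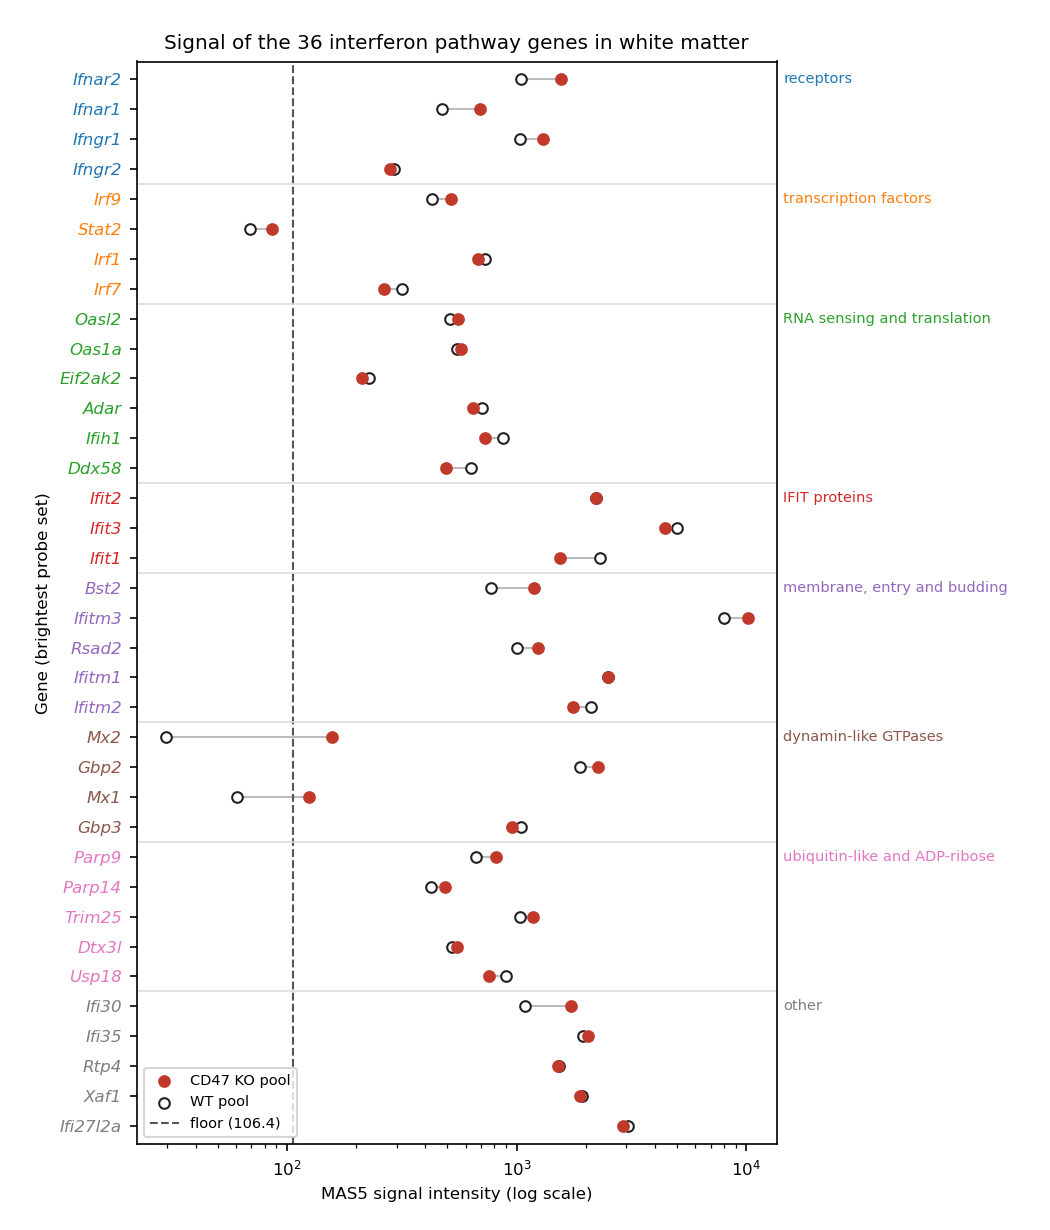
MAS5 signal intensity (horizontal, log scale) of the brightest probe set of each of the 36 genes (vertical, grouped by role), with 1 point for the CD47 KO pool (red, filled) and 1 for the WT pool (open), and the floor of 106.4 as a dashed line. Ifi30, Bst2, Ifnar1, Ifnar2, Mx1 and Mx2 have their CD47 KO point to the right of the WT point, and Ifit1 has it to the left, while for most other genes the 2 points nearly touch. Stat2 lies under the floor in both pools.

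The receptor chains of type I interferon were among the genes with the highest ratios. Ifnar2, the chain that binds type I interferon with high affinity, had a signal of 1566 in CD47 KO and 1048 in WT (log2 ratio 0.58, 1.49-fold higher). Ifnar1, its partner chain, had 692.1 in CD47 KO and 475.1 in WT (log2 ratio 0.54). Of all measured genes, 4.1% had a larger ratio than Ifnar2 and 4.7% a larger ratio than Ifnar1. Both type I receptor chains were thus higher in the CD47 KO pool by their brightest probe sets.

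The chains of the IFN-γ receptor differed less by their brightest probe sets. Ifngr1, the ligand-binding chain, had a signal of 1301 in CD47 KO and 1032 in WT (log2 ratio 0.33). Ifngr2, the chain that brings the second kinase, had 280.5 in CD47 KO and 293.5 in WT (log2 ratio -0.07), but its other probe set had 284.8 in CD47 KO and 120 in WT (log2 ratio 1.25). The probe sets of Ifngr2 therefore gave no single direction, and their disagreement of over 1 log2 unit was beyond the bound of 0.74. Over the 4 receptor genes the median log2 ratio was 0.44, with 3 above 0, beside 46.8% of all measured genes.

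Of the transcription factors that carry the signal, none was far from equal. Irf9, which binds DNA in the complex with STAT2, had a signal of 516.4 in CD47 KO and 427.5 in WT (log2 ratio 0.27). Irf1, a factor strongly induced by IFN-γ, had 679.9 in CD47 KO and 731.1 in WT (log2 ratio -0.10). Irf7, which drives the genes of type I interferon itself, had 264.2 in CD47 KO and 315.5 in WT (log2 ratio -0.26). Irf9 and Irf7 thus pointed in opposite directions, each from 1 probe set.

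Stat2 marks the outer side of the floor. Its brighter probe set had a signal of 86.4 in CD47 KO and 69.03 in WT, and the other 61.28 in CD47 KO and 84.39 in WT, so that no ratio was taken. Just inside the floor stood Mx1, with 124.7 in CD47 KO and 60.7 in WT, and Mx2, with 156.6 in CD47 KO and 29.64 in WT.

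Of the 6 genes that sense foreign RNA or act on it, 2 had a log2 ratio above 0, beside 46.8% of all measured genes, and the median was -0.11. The largest difference was that of Ddx58, which encodes the viral RNA sensor RIG-I, at 491 in CD47 KO and 633.5 in WT (log2 ratio -0.37). Its next probe set went the other way, with 211.7 in CD47 KO and 180.7 in WT (log2 ratio 0.23). Ifih1, which encodes the related sensor MDA5, had 730.4 in CD47 KO and 875.3 in WT (log2 ratio -0.26). RIG-I and MDA5 are the main cytosolic sensors of viral RNA, and both transcripts were lower in CD47 KO by their brightest probe sets.

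The enzymes of this group lay near 0 by their brightest probe sets. Adar, which edits double-stranded RNA, had a signal of 648.7 in CD47 KO and 703.5 in WT (log2 ratio -0.12). A dimmer probe set of Adar lay further from 0, with 120.1 in CD47 KO and 161.6 in WT (log2 ratio -0.43). Eif2ak2, the kinase PKR that halts translation, had 212.2 in CD47 KO and 228.3 in WT (log2 ratio -0.11), with 0.11 and -0.05 by its other probe sets. Oas1a, an oligoadenylate synthetase, had 574.4 in CD47 KO and 550.2 in WT (log2 ratio 0.06). Oasl2, of the same family, had 555 in CD47 KO and 510.4 in WT (log2 ratio 0.12).

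The IFIT genes encode proteins that bind viral RNA and are among the transcripts most strongly induced by type I interferon. Ifit1 had the lowest ratio of the 35 genes, with a signal of 1548 in CD47 KO and 2295 in WT (log2 ratio -0.57, 1.48-fold lower), and 5.1% of all measured genes had a smaller ratio. Ifit3 had 4405 in CD47 KO and 5013 in WT (log2 ratio -0.19). Ifit2 had 2217 in CD47 KO and 2216 in WT. The 3 genes lie in a cluster on chromosome 19, and of these Ifit1 lay furthest from 0. Each had 1 probe set, so the value of Ifit1 has no second measurement.

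Genes of membrane proteins that act on viral entry or budding went both ways. Of 5 log2 ratios 3 were above 0, beside 46.8% of all measured genes, and the median was 0.31. Bst2, which encodes tetherin, the protein that holds budding virions at the cell surface, had a signal of 1192 in CD47 KO and 777 in WT (log2 ratio 0.62, 1.53-fold higher). Ifitm3, which blocks fusion of viral and endosomal membranes, had 10156 in CD47 KO and 8028 in WT (log2 ratio 0.34). Of its family, Ifitm2 had 1753 in CD47 KO and 2097 in WT (log2 ratio -0.26), and Ifitm1 had 2488 in CD47 KO and 2493 in WT. The 3 IFITM genes are close relatives on chromosome 7, and they showed a higher, a lower and an equal value. Rsad2, which encodes viperin, had 1238 in CD47 KO and 1000 in WT (log2 ratio 0.31).

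Among the dynamin-like GTPases, the Mx genes reached the floor in CD47 KO alone. Mx2 was at least 1.47-fold higher in CD47 KO and Mx1 at least 1.17-fold, with WT set to the floor. These are lower bounds, and signals this close to background are noisy. Gbp2, a guanylate-binding protein induced above all by IFN-γ, had 2259 in CD47 KO and 1894 in WT (log2 ratio 0.25), with 0.21 by its other probe set. Gbp3 had 951.9 in CD47 KO and 1041 in WT (log2 ratio -0.13).

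The genes for ubiquitin-like and ADP-ribose modification had a median log2 ratio of 0.18, with 4 of 5 above 0, beside 46.8% of all measured genes. Parp9 had a signal of 816.2 in CD47 KO and 662.5 in WT (log2 ratio 0.30), and its binding partner, the ubiquitin ligase gene Dtx3l, 552.2 in CD47 KO and 524.7 in WT (log2 ratio 0.07). Parp14, a mono-ADP-ribosyltransferase, had 488 in CD47 KO and 424.3 in WT (log2 ratio 0.20). Trim25, a ubiquitin ligase that acts on RIG-I, had 1180 in CD47 KO and 1039 in WT (log2 ratio 0.18), from a probe set marked for possible cross-hybridisation. Usp18, the protease that restrains signalling at the type I receptor, was the exception with 756.5 in CD47 KO and 901.2 in WT (log2 ratio -0.25).

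Of the remaining 5 genes, Ifi30 lay furthest from 0. Ifi30, which encodes a lysosomal thiol reductase used in antigen processing by phagocytes and is inducible by IFN-γ, had the highest ratio of the 35 genes. Its signal was 1720 in CD47 KO and 1086 in WT (log2 ratio 0.66, 1.58-fold higher), and 3.1% of all measured genes had a larger ratio. A further probe set that carries the names of Ifi30 and of another gene was not used.

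Ifi35 had 2054 in CD47 KO and 1940 in WT (log2 ratio 0.08) by its brightest probe set, which carries a suffix for possible cross-hybridisation, and 514.9 in CD47 KO and 349 in WT (log2 ratio 0.56) by its only probe set without one. The value of Ifi35 therefore depends on the probe set. Rtp4, which encodes a receptor-transporting protein, had 1515 in CD47 KO and 1530 in WT. Xaf1, whose product binds the apoptosis inhibitor XIAP, had 1880 in CD47 KO and 1933 in WT (log2 ratio -0.04), and Ifi27l2a had 2890 in CD47 KO and 3049 in WT (log2 ratio -0.08). Rtp4, Xaf1 and Ifi27l2a, all widely used as readouts of type I interferon, were thus nearly equal in the pools.

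**Figure D2:**
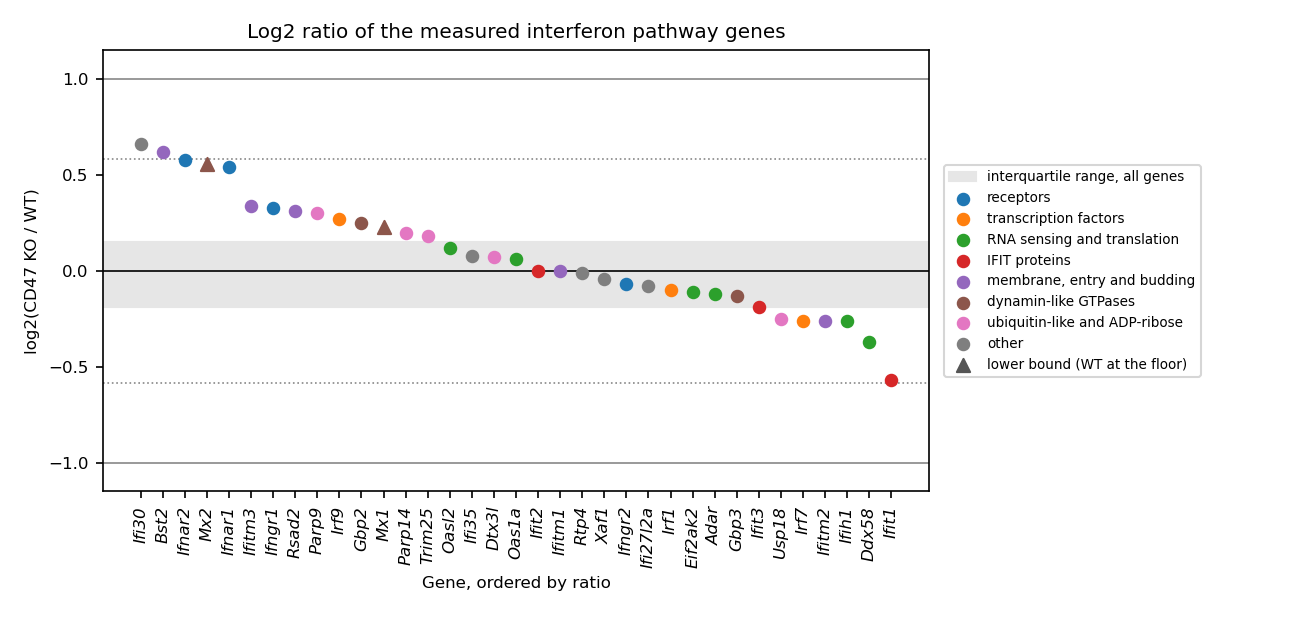
Log2 ratio of CD47 KO over WT (vertical) of the 35 measured genes in order of their ratio (horizontal), coloured by role, with the interquartile range of all 12473 measured genes (-0.19 to 0.15) as a grey band, 2-fold as solid lines and 1.5-fold as dotted lines. Triangles are lower bounds, with WT at the floor. No point reaches the 2-fold lines, though Mx1 and Mx2 are bounds; Ifi30 (0.66) and Bst2 (0.62) lie above the upper dotted line, and Ifit1 (-0.57) lies just inside the lower one.

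Different probe sets of a gene repeat the measurement on the same pools. Of the 58 probe sets of the 36 genes, 47 were above the floor in both arrays, 2 in 1 array and 9 in neither, and 10 genes had several probe sets above it in both. In 5 of these 10 genes all probe sets agreed in sign, and in the other 5 they did not. In 6 of the 10 the ratios lay within the SD of 0.36. For Ifnar2 the log2 ratio was 0.36 by the second probe set, with 552.9 in CD47 KO and 430.2 in WT, and 0.02 by the dimmest, with 133.6 in CD47 KO and 131.7 in WT. The remaining probe set of Ifi35, which also carries a suffix, gave 0.30. The probe sets of Rsad2 gave 0.31, 0.16 and -0.05.

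**Figure D3:**
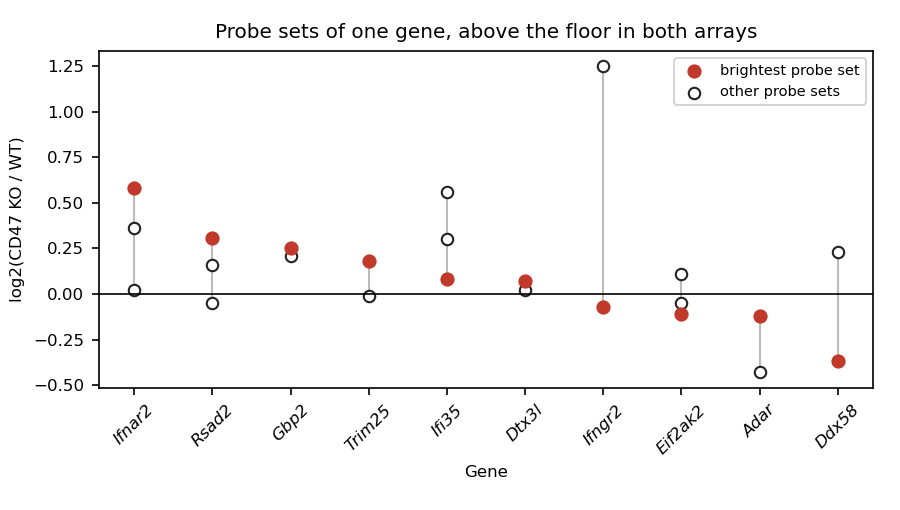
Log2 ratio of CD47 KO over WT (vertical) by each probe set of the 10 genes (horizontal) with several probe sets past the floor in each pool; the brightest probe set is red and the others are open. The probe sets of Gbp2 (0.25 and 0.21) and Dtx3l (0.07 and 0.02) nearly coincide, while those of Ifngr2 span -0.07 to 1.25.

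Promoter sequences were set beside these ratios because the ISRE is the element through which type I interferon acts. Windows from 250 bases before to 50 bases after the gene start (RefSeq, GRCm38.p6) were found for 29 of the 36 genes, 35 windows in all. The ISRE was searched as GAAANNGAAA on both strands, and 13 of the 29 genes (44.8%) had a match, beside 3.99% of 27025 genes and 3.44% of 32851 windows overall. The GAS element, searched as TTCNNNGAA, which reads the same on both strands, was matched in 10 of the 29 genes (34.5%), beside 9.55% of genes and 8.3% of windows overall. A match is a run of letters and not a shown binding site.

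The upstream matches of the gene with the lowest ratio, Ifit1, and of its relative Ifit3 are shown beside those of Bst2, Rsad2 and Gbp2, which had ratios above 0. The sequences run 5′ to 3′ on the strand of the gene, with capitals marking the ISRE letters, and TTTC stands for GAAA read on the opposite strand.
Bst2 (chr8:71537567-71537622, minus strand): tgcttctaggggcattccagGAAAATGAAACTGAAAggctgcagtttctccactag
Ifit1 (chr19:34640765-34640833, plus strand): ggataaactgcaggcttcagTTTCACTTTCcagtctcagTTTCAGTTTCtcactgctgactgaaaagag
Ifit3 (chr19:34583353-34583436, plus strand): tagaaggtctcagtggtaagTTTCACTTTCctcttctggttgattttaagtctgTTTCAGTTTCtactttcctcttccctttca
Rsad2 (chr12:26456543-26456592, minus strand): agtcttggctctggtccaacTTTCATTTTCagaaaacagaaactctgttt
Gbp2 (chr3:142620584-142620633, plus strand): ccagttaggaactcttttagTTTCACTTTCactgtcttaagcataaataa

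Bst2 and Ifit1 each had 2 matches upstream of the start and lay at opposite ends of the order of ratios. In Bst2 the matches overlapped and began 130 and 124 bases before the start, and the first overlapped a GAS match that began 136 bases before it. In Ifit1 they began 104 and 85 bases before the start, and in Ifit3 156 and 122 bases. The first match of Ifit1 and that of Ifit3 hold the same 10 letters, as do their other matches. Over the 12 measured genes with an ISRE match the median log2 ratio was -0.12, with 5 above 0, and over the 16 measured genes with a window and no match it was 0.075, with 10 above 0. Among all measured genes 46.8% were above 0. The windows of Ifi30, Ifnar1 and Ifnar2, which had high ratios, held no ISRE match, and those of Ifnar1 and Ifnar2 each held a GAS match.

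Other genes of the pathway were counted from lists. Of 9 interferon genes with a probe set, only Ifnz was above the floor, at 144.1 in CD47 KO and 147.1 in WT, whereas Ifnb1 (72.7 in CD47 KO and 63.02 in WT) and Ifng (21.05 in CD47 KO and 4.59 in WT) were below it in both pools. Of 15 measured genes of JAK-STAT signalling and its brakes, 10 were above 0, beside 46.8% of all measured genes, with a median of 0.10. In this list Irf8, a transcription factor of the myeloid lineage, was 3.05-fold higher (889.9 in CD47 KO and 291.6 in WT), and Socs3, a feedback inhibitor of cytokine receptors, was 1.96-fold higher (1129 in CD47 KO and 576.1 in WT). The kinase genes Jak1 (1401 in CD47 KO and 1383 in WT), Jak2 (1469 in CD47 KO and 1473 in WT) and Tyk2 (286.4 in CD47 KO and 299.5 in WT) were nearly equal.

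Genes of nucleic acid sensing upstream of interferon were above 0 for 13 of 14 measured genes, beside 46.8% of all measured genes, with a median log2 ratio of 0.35. Of the 14 ratios 3 are bounds (Ikbke, Zbp1 and Dhx58). Ikbke and Dhx58, with WT set to the floor, could only fall above 0. Zbp1, with CD47 KO set to it, could only fall below 0. In this list 1 gene was over 2-fold higher, beside 1.21% of all measured genes. Tlr7, the endosomal receptor for single-stranded RNA, had a signal of 417.5 in CD47 KO and 168.9 in WT (2.47-fold higher), and Unc93b1, which brings it to the endosome, had 630.6 in CD47 KO and 351.2 in WT (1.80-fold higher). Mavs, the adaptor of RIG-I and MDA5, had 752.6 in CD47 KO and 539.3 in WT (log2 ratio 0.48). The endosomal pair thus stood further from 0 than RIG-I and MDA5 themselves, whose ratios were below 0 by their brightest probe sets. For RIG-I the next probe set of Ddx58 gave 0.23.

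A further list of 48 measured interferon-stimulated genes had a median log2 ratio of 0.19, with 36 above 0, 7 over 1.5-fold higher and 2 over 1.5-fold lower, and 5 of the ratios are bounds. Slfn9, Mov10, Casp4 and Cxcl9, with WT set to the floor, could only fall above 0. Apobec3, with CD47 KO set to it, could only fall below 0. Casp4 and Cxcl9 are among the 7. Of all measured genes 46.8% were above 0, 4.02% over 1.5-fold higher and 4.68% over 1.5-fold lower. The chemokine gene Ccl5 was 2.28-fold higher (517.4 in CD47 KO and 227 in WT) and Lgals3bp, which encodes a secreted galectin ligand, 1.91-fold higher (2132 in CD47 KO and 1117 in WT). Cxcl9, a chemokine gene induced by IFN-γ, was at least 1.91-fold higher, and Casp4, an inflammatory caspase gene, at least 1.64-fold, with WT under the floor in both cases. Oas2, an oligoadenylate synthetase gene, went the other way and was 1.71-fold lower, with 106.6 in CD47 KO, barely above the floor, and 182.5 in WT. Of the 8 measured GTPase genes induced by IFN-γ, 4 were above 0. Among them Gbp8 was 2.39-fold higher (397.3 in CD47 KO and 166.5 in WT) and Ifi47 1.52-fold lower (583.4 in CD47 KO and 889 in WT).

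Markers of cell types differed between the pools in both directions. Of 14 measured microglial markers 12 were above 0, with a median log2 ratio of 1.27 and a summed signal of 86482 in CD47 KO and 42265 in WT. Of these, Trem2 had 2795 in CD47 KO and 436.4 in WT, whereas Tmem119 had 841.8 in CD47 KO and 1205 in WT. Neutrophil markers were above 0 for 5 of 5 genes (summed signal 3595 in CD47 KO and 2926 in WT), with Ngp, a granule protein gene, at 644.3 in CD47 KO and 395.3 in WT. Astrocyte markers were above 0 for 5 of 6 genes (87834 in CD47 KO and 76247 in WT) and oligodendrocyte markers for 6 of 6 (176649 in CD47 KO and 160955 in WT). Of 4 genes listed for plasmacytoid dendritic cells, 2 were above 0 (8047 in CD47 KO and 7684 in WT). Most of this signal was that of Tcf4 (6306 in CD47 KO and 6671 in WT). Ccr9 was under the floor in CD47 KO (81.77, with 121.7 in WT), and Irf8 also stands in the JAK-STAT list. The presence of such cells is not shown by this list. The other lists lay mostly below 0. Perivascular macrophage markers were below 0 for 6 of 6 genes (summed signal 3399 in CD47 KO and 4419 in WT), as were 6 of 7 endothelial markers (15793 in CD47 KO and 18604 in WT) and 6 of 6 meningeal markers (25523 in CD47 KO and 31378 in WT). Neuronal markers were below 0 for 7 of 7 genes (7121 in CD47 KO and 13939 in WT). Of 8 markers of T, B and NK cells with a probe set, 6 were under the floor in both pools, Cd3e and Cd4 among them. The other 2 were each above it in 1 pool. Nkg7 had 172 in CD47 KO and 79.06 in WT, and Cd8a had 96.47 in CD47 KO and 146.6 in WT. The summed signal of the 35 interferon genes was 50852 in CD47 KO and 47858 in WT, a ratio of 1.06, beside 2.05 for the microglial markers. The part of any of these cell types in the ratios of Ifi30, Bst2, Ifit1 or the receptor genes was not tested.

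**Figure D4:**
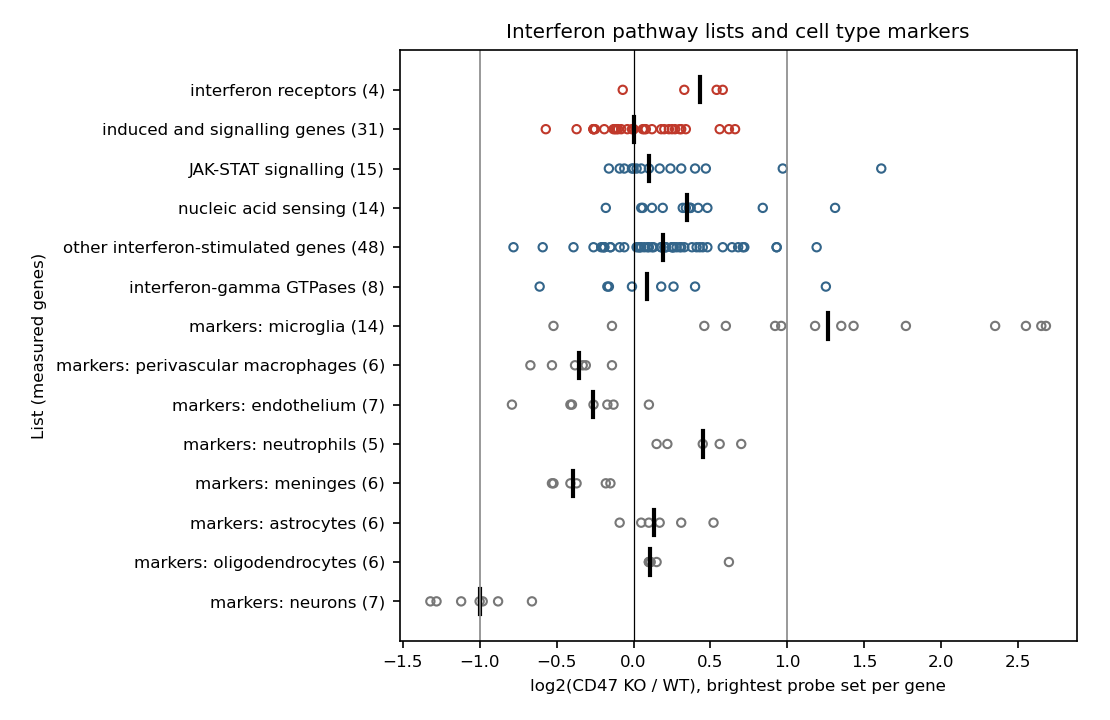
Log2 ratios, CD47 KO over WT (horizontal), of the measured genes (circles) of the interferon receptors and the other 31 measured genes (red), of further interferon pathway lists (blue) and of cell type markers (grey), with the median of each list as a black bar and 2-fold as grey lines. The number of measured genes stands in brackets. The receptors (median 0.44) and the nucleic acid sensing list (0.35) lie to the right of the 31 induced and signalling genes, whose median is 0.00, and the microglial markers (1.27) lie furthest to the right.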

How the data were processed

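Total RNA of each pool was labelled with a 3' in vitro transcription kit. For every probe set the authors deposited a linear MAS5 signal intensity, scanned under Command Console and processed with Expression Console. No source used here gives the version of MAS5. Each array was scaled by 1 factor, which leaves near-background signals noisy. The members and lists were chosen with earlier results of these data known.

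Of 45101 probe sets, 64 controls were set aside. Names came from the platform annotation, with 34945 probe sets of 1 gene, of which 34741 were found by identifier in GRCm38.p6. 932 probe sets with several genes and 9160 without a name were left out. Signals under the floor of 106.4 (50th percentile of both arrays) were set to it before log2 ratios were taken, which makes a bound of any ratio with 1 pool there.

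All 36 members were described. Of other lists, genes over 1.5-fold, at most 5, were named, and further genes after their values were seen. The steps, in Python 3.11.15 with pandas 2.3.3, were tested on simulated data. Alternatives were other floors (40th and 60th percentile, none), quantile normalisation, median centring, loess, other probe set choices and log2(signal + 50). The number of arrays limits the precision.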

Additional observations from a re-analysis of the deposited data

How the results depend on the processing

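No paired analysis was possible because each genotype had 1 array, and for the same reason no replicate could be left out. Under the 9 alternatives the count of genes over 1.5-fold lower stayed at 0 and the median log2 ratio of the measured genes of the 36 lay between 0.00 and 0.09. The Mx genes alone decided the counts over 2-fold higher. 1 gene, Mx2, was over 2-fold higher with the floor at the 40th percentile or with log2(signal + 50), and 2 genes, Mx1 and Mx2, with no floor, against 0 as reported. The count over 1.5-fold higher was 4 in each of these settings, against 2, and 3 with median centring (Ifnar2) or the median over probe sets (Ifngr2). Without a floor the SD between probe sets was 1.25 and 7.07% of all genes were over 2-fold higher. Of 313 values of single genes under the alternatives, 8 moved by more than the SD of 0.36, those of Mx1, Mx2, Ifi35 (0.56 once probe sets with cross-hybridisation suffixes were dropped) and Ifngr2 (0.59 as the median over probe sets). The sign changed for Ifngr2 in that setting, for Ifit2 under quantile normalisation (0.00 after rounding in both), for Trim25 (-0.01 once those were dropped) and for Ifitm1 (0.02) and Rtp4 (0.01) with median centring.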

Other observations

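Of the 36 genes, 9 lie on chromosome 16, which also carries Cd47: Ifnar1, Ifnar2, Ifngr2, Mx1, Mx2, Parp9, Parp14, Dtx3l and Rtp4. Their median log2 ratio was 0.23, with 7 of 9 above 0, and the 26 measured genes on other chromosomes had a median of -0.02, with 12 above 0. Of the 9 ratios 2 are bounds, those of Mx1 and Mx2, which could only fall above 0, and the median of 0.23 is the bound of Mx1. None of the 26 ratios is a bound. All 405 measured genes of chromosome 16 had a median of 0.00, with 204 above 0. The 12022 genes of other chromosomes had a median of -0.02, with 5615 above 0. By the order of protein-coding genes in GRCm38.p6, Ifnar2, Il10rb, Ifnar1 and Ifngr2 follow each other. Il10rb, a receptor chain used by interleukin-10 and type III interferon, had a signal of 1673 in CD47 KO and 1421 in WT (log2 ratio 0.24), and Tmem50b, next to Ifngr2, had 2352 in CD47 KO and 2694 in WT (log2 ratio -0.20). Before Ifnar2 come Olig1, with 15271 in CD47 KO and 13883 in WT, and Olig2, with 1930 in CD47 KO and 1309 in WT (log2 ratio 0.56). This grouping was noticed after the values were seen and was not tested.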
